A study of Mus musculus with 2 samples.

Results

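The genes described here encode the laminins, the integrins and 5 other proteins of the basement membrane and its receptors, measured by total RNA-seq in the adrenal glands of 2 newborn mice. Members were taken by gene symbol: every laminin alpha, beta and gamma chain gene, every integrin alpha and beta subunit gene, and Nid1, Nid2, Hspg2, Agrn and Dag1. The rule found 42 genes among 55536 annotated genes: 11 laminin chains, 18 integrin alpha subunits, 8 integrin beta subunits and the 5 others. Both animals were B6CASTF1/J females aged 4 days, so the study has 1 group of 2 biological replicates, called animal 1 and animal 2, and no treatment, mutant or second condition. This strain is a first-generation cross of C57BL/6J with the wild-derived CAST/EiJ, and the labels name no transgene or added agent. The labels state no purpose, so the values answer which of these genes the newborn gland expressed, in what proportions, and how far the animals differed. The library text of animal 2 carries the animal number of animal 1 while its tissue text carries another, and both share a donor record. Differing replicate numbers and tissue records are the ground for treating them as separate animals.

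A laminin is a cross-shaped trimer of an alpha, a beta and a gamma chain that self-assembles into a sheet under epithelia and endothelia and around muscle, nerve and fat cells. Nidogens and the heparan sulfate proteoglycans perlecan and agrin tie that sheet to the type IV collagen network, and cells hold on to it through integrins, which are alpha-beta pairs spanning the membrane, and through dystroglycan. In the adrenal gland, cords of steroid-making cells and clusters of chromaffin cells lie against the walls of a dense network of capillaries, with basement membrane between them.

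The gene tables held 31838341 expected counts for animal 1 and 32931868 for animal 2. Levels are TPM, the length-corrected share of the library, so they can be compared between genes. Markers of the adrenal cortex summed to 6168 TPM in animal 1 and 6749 TPM in animal 2, those of chromaffin cells to 1836 and 2150 TPM, and those of endothelium to 351 and 336 TPM, and all 22 genes of these lists were detected. The libraries also carried genes of neighbouring tissues in unequal amounts. Pancreas markers summed to 3795 TPM in animal 1 and 0.490 TPM in animal 2, where 5 of the 7 (Cela2a, Prss2, Amy2a5, Ins2 and Gcg) were listed at 0. Kidney markers summed to 156 and 35.6 TPM, skeletal muscle markers to 351 and 2191 TPM, and liver markers to 109 and 454 TPM. Adipose tissue markers were closer between the animals, at 655 and 737 TPM, and all 5 were detected. The part of these tissues in the levels given here was not tested. In bulk tissue, fewer cells of a type and less RNA per cell cannot be told apart, and this holds for every difference given here.

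Most of the 42 genes were expressed in both glands. At least 1 TPM was reached in both animals by 35 members, or 83.3%, against 59.3% of the 22028 protein-coding genes. Itgb7 reached it in animal 2 only, and 6 members stayed below it in both: Lamb3, Itga10, Itga11, Itgax, Itgae and Itgad. No member had a count of 0 in either animal. The highest were Itgb1 and Itga6, ranks 470 and 592 by mean TPM among protein-coding genes, followed by Lamb1, Lamc1, Dag1 and Hspg2, and these 6 stood among the top 1000. In a second deposited quantification, made from the read files, Itga6 stood above Itgb1. In mm10 the genes to which the text returns most lie as follows. On the plus strand are Itgb1 (ENSMUSG00000025809.15) at chr8:128685654-128733200, Itga6 (ENSMUSG00000027111.15) at chr2:71745616-71858416, Lamb1 (ENSMUSG00000002900.16) at chr12:31265234-31329644 and Lama4 (ENSMUSG00000019846.11) at chr10:38965515-39110188. On the minus strand are Lamc1 (ENSMUSG00000026478.14) at chr1:153218922-153332786 and Agrn (ENSMUSG00000041936.18) at chr4:156165290-156197488.

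**Figure D1:**
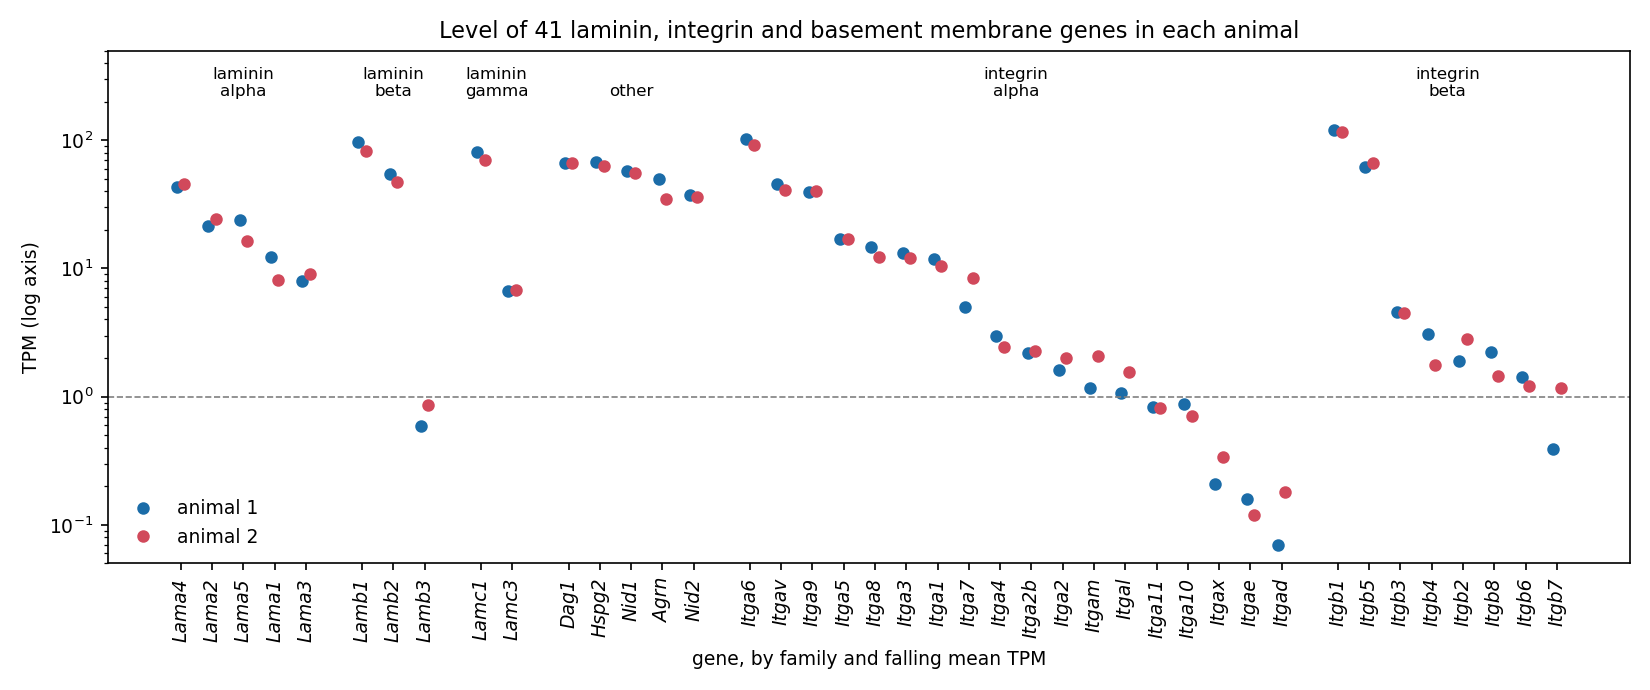
TPM of 41 of the 42 genes in each animal (points, blue for animal 1 and red for animal 2) on a log axis, grouped by family and ordered by mean, with "other" for the nidogens, perlecan, agrin and dystroglycan. The dashed line marks 1 TPM, and the points of both animals lie close together for most genes, as for Dag1 at 67.1 and 66.2 TPM, while Itga7 at 4.97 and 8.36 TPM is among the pairs that stand further apart.

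Among the laminin alpha chains, which carry the receptor-binding end of the trimer, Lama4 was the highest. Lama4, the alpha4 chain typical of blood vessel walls, stood at 43.6 TPM in animal 1 and 45.9 TPM in animal 2 (mean 44.8 ± 1.57, SD, n = 2). Lama2, the chain of muscle and Schwann cell basement membranes, stood at 21.4 and 24.4 TPM. Lama5, the most widespread chain of mature epithelia and vessels, stood at 23.7 and 16.4 TPM. The ranges of Lama2 and Lama5 overlapped, so their order is not resolved, and both lay below Lama4 in each animal. Lama1, an early embryonic chain that persists in parts of the kidney, stood at 12.3 and 8.19 TPM, and Lama3, the chain of epithelial anchoring laminin, at 8.00 and 9.04 TPM. Those last ranges also overlapped. Lama4 made up 40.0% and 44.2% of all laminin alpha TPM in animals 1 and 2, Lama2 19.6% and 23.5%, and Lama5 21.8% and 15.8%.

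The beta and gamma chains were dominated by the pair shared by most laminins. Lamb1, the beta1 chain, stood at 96.9 and 82.9 TPM (mean 89.9 ± 9.89, SD, n = 2), and Lamb2, the beta2 chain of vessel, glomerular and synaptic laminins, at 54.7 and 47.5 TPM. Lamb1 exceeded Lamb2 by 1.77 and 1.75 times, by 2.07 and 2.22 times in the second quantification, and by 3.04 and 2.70 times over basic transcripts, those the annotation tags as basic, a set that favours full-length coding transcripts over fragments. Lamc1, the gamma1 chain, stood at 81.2 and 69.7 TPM (mean 75.5 ± 8.15, SD, n = 2) and made up 88.0% and 89.2% of gamma chain TPM. Lamc3, a gamma chain found in fewer tissues, followed at 6.69 and 6.81 TPM.

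Lamb3, the beta chain of epithelial anchoring laminin, was low, at 0.590 TPM in animal 1 and 0.860 TPM in animal 2. With all its forms summed, Lama3, the gene of that laminin's alpha chain, exceeded Lamb3 by 13.6 and 10.5 times. Over basic transcripts this was 19.5 and 18.4 times. Lama3 is annotated with a long form of 9990 coding bases and a short form of 5172 coding bases that starts inside the gene. The long form took 75.6% and 77.0% of Lama3 TPM, and 97.7% and 100% in the second quantification. The short form stood at 1.95 and 2.08 TPM, and at 0.290 and 0.000530 TPM in the second quantification. The ratio to Lamb3 therefore reflects mostly the long form, and the forms were not set against Lamb3 separately.

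Summed over chains, laminin alpha TPM was 109 and 104 and beta 152 and 131. Beta chain TPM exceeded alpha chain TPM by 1.39 and 1.26 times, by 1.51 and 1.34 times in the second quantification, and by 1.56 and 1.47 times over basic transcripts. A secreted trimer holds 1 chain of each kind, and these are RNA ratios, which give no protein ratio.

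**Figure D2:**
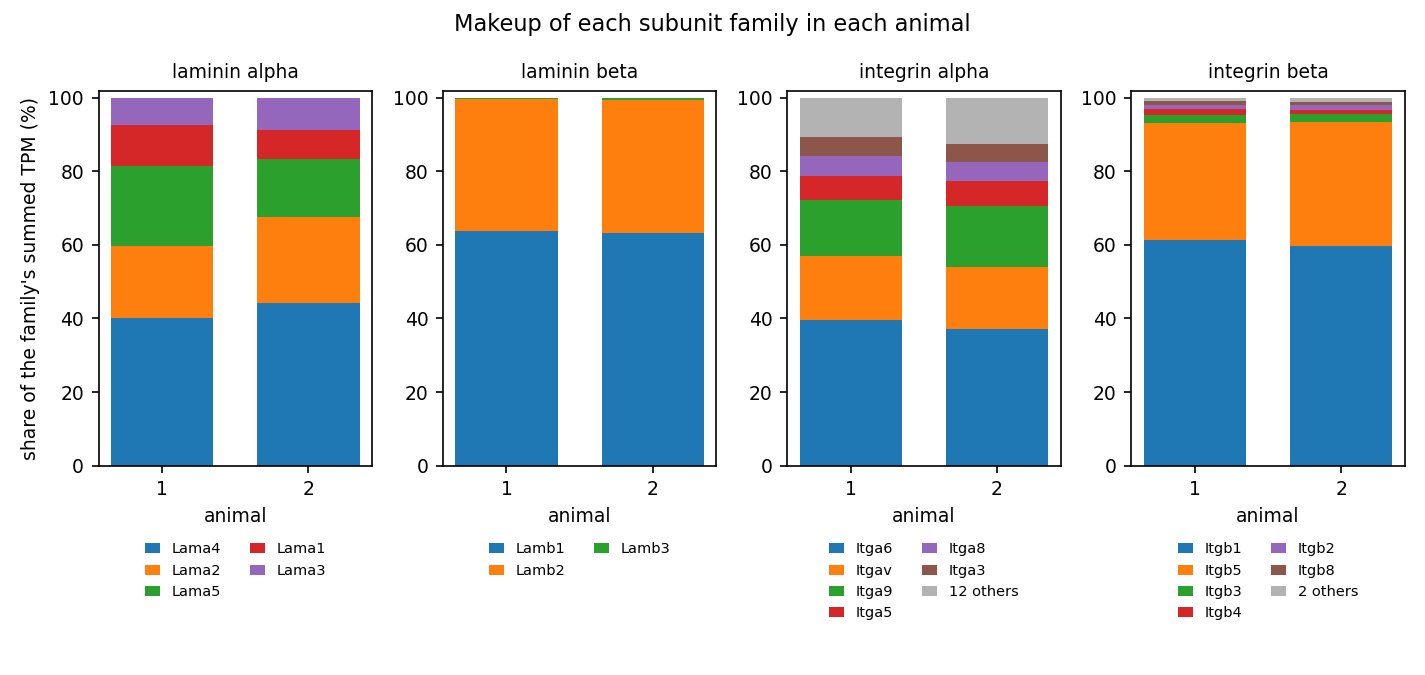
Share of each family's summed TPM (percent) taken by each gene in animal 1 and animal 2, 1 panel for each of 4 subunit families, with genes beyond the leading 6 pooled in grey. The bars of both animals look alike in every panel, and the green Lama5 band, at 21.8% and 15.8%, is among those that differ.

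The linkers and dystroglycan were all well expressed, within a narrow range. Perlecan, encoded by Hspg2, stood at 68.2 and 62.9 TPM. Nid1 stood at 57.2 and 55.6 TPM and Nid2 at 37.4 and 36.1 TPM, so that Nid1 exceeded its paralog Nid2 by 1.53 and 1.54 times. That ratio was 1.73 and 1.76 in the second quantification and 1.89 and 1.90 over basic transcripts. Dag1, which encodes both subunits of dystroglycan from 1 precursor, stood at 67.1 and 66.2 TPM. The spread of these 4 genes was at most 3.78 TPM (SD, n = 2), that of Hspg2. Agrn differed more, at 49.6 and 35.0 TPM (mean 42.3 ± 10.3, SD, n = 2).

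Agrin is known in 2 kinds of form, and the sequences that set them apart are shown because the transcript tables bear on them. An upstream start gives the secreted form that binds laminin, and a downstream start gives a membrane-anchored form typical of neurons. Neurons include small exons near the 3′ end, and some of these add the residues that let agrin cluster acetylcholine receptors. The 3 small coding exons of the mm10 annotation lie on the minus strand of chromosome 4, and capitals mark coding bases, here all of them.
12-base exon, chr4:156169546-156169557: AAATCCCGCAAG
24-base exon, chr4:156168546-156168569: CGAGCTGACCAATGAGATCCCAGC
33-base exon, chr4:156167777-156167809: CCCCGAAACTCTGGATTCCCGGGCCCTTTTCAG
Each is a whole number of codons (4, 8 and 11), so including one leaves the reading frame as it was. Transcripts with the 33-base exon took 0.927% of the TPM of the transcripts that span it in animal 1 and 1.05% in animal 2, and 1.48% and 2.44% in the second quantification. The annotated coding transcript with all 3 exons stood at 0.420 and 0.340 TPM. For the 24-base exon the share was 34.7% and 33.6% in the first quantification and 7.93% and 6.63% in the second, and most of it lay in a retained-intron transcript that encodes no annotated protein, at 15.3 and 10.6 TPM in the first and 3.72 and 1.73 TPM in the second. For the 12-base exon the share was 10.6% and 10.9% in the first quantification and 11.5% and 12.6% in the second. Most of that lay in another retained-intron transcript, at 3.08 and 2.29 TPM in the first and 6.02 and 4.54 TPM in the second. Among complete coding transcripts, the share with any of these exons was 1.40% and 1.55%, and 1.59% and 2.54% in the second quantification. Adrenal agrin RNA was therefore mostly assigned to forms without the small exons in all 4 estimates.

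The upstream start led in both quantifications. Its complete coding transcript stood at 25.2 and 16.0 TPM, and that of the downstream start without small exons at 1.02 and 3.92 TPM. In the second quantification the values were 31.7 and 21.2 TPM against 18.6 and 16.4 TPM, so the order held and the size of the gap did not. The 250 bases before each of the RefSeq starts (GRCm38.p6, minus strand) show how different these promoters are, with GGGCGG on either strand, the GC box, in capitals.
Upstream start, chr4:156197489-156197738: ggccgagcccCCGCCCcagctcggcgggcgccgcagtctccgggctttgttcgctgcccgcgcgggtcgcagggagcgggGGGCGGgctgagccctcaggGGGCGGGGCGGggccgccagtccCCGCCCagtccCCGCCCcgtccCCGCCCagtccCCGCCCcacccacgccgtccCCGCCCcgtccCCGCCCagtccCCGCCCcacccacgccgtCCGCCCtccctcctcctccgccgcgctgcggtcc
Downstream start, chr4:156186260-156186509: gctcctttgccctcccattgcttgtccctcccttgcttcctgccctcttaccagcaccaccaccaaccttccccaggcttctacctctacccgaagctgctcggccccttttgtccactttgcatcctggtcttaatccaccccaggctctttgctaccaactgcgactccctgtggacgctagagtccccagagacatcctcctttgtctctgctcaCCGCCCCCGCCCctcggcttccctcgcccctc
The upstream window holds 12 GC boxes and 35 CpG dinucleotides, and the downstream window 2 GC boxes, which adjoin each other, and 8 CpG dinucleotides. The downstream RefSeq start does not coincide with the start of the annotated transcript used for the levels. RefSeq windows were found for 27 of the 42 members, 32 windows in all. GGGCGG on either strand, with overlapping matches counted, occurred in 15 of these windows (46.9%) and in 32.7% of the 32851 windows of all genes, and a match of letters shows no bound factor.

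Integrin alpha subunits set the ligand of each receptor, and the laminin-binding subunit Itga6 was the highest of the 18. Itga6 stood at 103 and 91.5 TPM (mean 97.0 ± 7.91, SD, n = 2) and made up 39.5% and 37.2% of integrin alpha TPM. The other laminin-binding subunits were lower: Itga3 stood at 13.2 and 12.1 TPM, and Itga7, the main laminin integrin of muscle, at 4.97 and 8.36 TPM. Itga6 exceeded Itga3 by 7.77 and 7.57 times, by 16.4 and 16.1 times in the second quantification, and by 4.68 and 4.92 times over basic transcripts.

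Subunits for other ligands followed. Itgav, the subunit of the vitronectin receptors that bind the RGD sequence, stood at 45.4 and 41.3 TPM, and Itga9, which binds tenascin and other ligands without RGD, at 39.5 and 40.6 TPM. This order is not resolved, since Itga9 lay above Itgav in the second quantification (118 and 114 against 50.5 and 49.8 TPM) and over basic transcripts (34.2 and 35.3 against 20.4 and 19.1 TPM). Itga5, the fibronectin receptor subunit, stood at 16.9 and 17.1 TPM, and Itga8, the nephronectin receptor subunit, at 14.6 and 12.2 TPM. Itga1, which binds collagen IV, stood at 11.8 and 10.4 TPM. The other collagen-binding subunits were near 1 TPM or below: Itga2 at 1.60 and 2.01 TPM, Itga11 at 0.830 and 0.820 TPM, and Itga10 at 0.870 and 0.710 TPM. Itga4, which binds fibronectin and VCAM-1, stood at 3.00 and 2.46 TPM, so that Itga9 exceeded it by 13.2 and 16.5 times, and by 21.1 and 24.8 times in the second quantification.

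Integrin alpha subunits of blood cells were low, and Itgax, Itgae and Itgad were the lowest of the family. Itgal, the lymphocyte function antigen subunit, stood at 1.06 and 1.57 TPM, and Itgam, the subunit of complement receptor on myeloid cells, at 1.17 and 2.08 TPM. These 3 lay between 0.0700 and 0.340 TPM. Their counts ranged from 5.78 to 34.2, so their levels are known only roughly. Itga2b, the platelet subunit, stood at 2.18 and 2.26 TPM, but coding transcripts tagged as basic in the annotation held only 26.1% and 21.2% of that.

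Integrins alpha6 and alpha3 each come with 2 alternative cytoplasmic tails, called A and B, and the exons are shown because the transcript tables separate the forms. Including a tail exon gives the A form, which ends within it, and skipping it sends the reading frame into the next exon, which gives the B form. In mm10 the tail exon of Itga6 (130 bases) lies at chr2:71853534-71853663 on the plus strand and that of Itga3 (142 bases) at chr11:95046449-95046590 on the minus strand. Each is printed from its first base through the stop codon, and capitals mark the longest run of bases the tail exons share, 12 bases from position 4.
Itga6 tail exon: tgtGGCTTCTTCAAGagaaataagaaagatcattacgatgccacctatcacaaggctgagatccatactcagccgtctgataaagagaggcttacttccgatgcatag
Itga3 tail exon: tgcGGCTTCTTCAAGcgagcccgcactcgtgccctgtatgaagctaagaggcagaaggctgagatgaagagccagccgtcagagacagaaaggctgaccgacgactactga
Itga6 next exon, first 30 coding bases of the B form: tgtggattctttaagcgctctaggtacgat
Itga3 next exon, first 30 coding bases of the B form: tgtgacttctttaagccgacccgctactac
The shared run is absent from the first 30 bases of both B-form exons. Of these bases, 105 encode the end of alpha6A and 108 the end of alpha3A. For Itga3, transcripts with the tail exon took 100% of the TPM of the transcripts that span it, in both animals and both quantifications. The transcript without it also has a first exon of its own, so tail use and start use cannot be told apart there. For Itga6 both forms were present. Its complete A transcript stood at 42.7 and 41.2 TPM and its complete B transcript at 12.1 and 10.4 TPM, so A took 78.0% and 79.9% of the complete transcripts. In the second quantification they were 48.9 and 44.4 TPM against 50.6 and 45.7 TPM, so A took 49.2% and 49.3%. The animals were alike within each quantification, and the quantifications disagreed. A processed transcript without a coding sequence that also skips the exon took another 38.1 and 33.7 TPM, and with it the share of transcripts holding the tail exon was 46.0% and 48.3%, or 29.8% and 29.9% in the second quantification.

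Itga7 has a pair of mutually exclusive exons in its extracellular part, at chr10:128941445-128941576 and chr10:128941822-128941941 on the plus strand. They are shown because both were used, and capitals again mark coding bases.
Itga7 upstream exon: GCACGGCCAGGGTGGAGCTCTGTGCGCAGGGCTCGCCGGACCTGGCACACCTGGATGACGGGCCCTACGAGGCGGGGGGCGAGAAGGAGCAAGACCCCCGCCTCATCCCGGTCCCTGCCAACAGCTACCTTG
Itga7 downstream exon: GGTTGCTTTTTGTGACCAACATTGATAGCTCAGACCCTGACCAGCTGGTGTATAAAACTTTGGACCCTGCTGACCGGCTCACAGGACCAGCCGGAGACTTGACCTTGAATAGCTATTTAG
The upstream exon holds 132 bases and the downstream exon 120 bases, both whole numbers of codons. Shares here are of the TPM of the transcripts that span the pair, and other transcripts of the gene are left out. Transcripts with the downstream exon took 59.0% and 71.4% in the first quantification and 74.7% and 59.3% in the second. They led in all 4 estimates, and the animals changed order between quantifications, so no difference between the animals can be read from them.

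**Figure D3:**
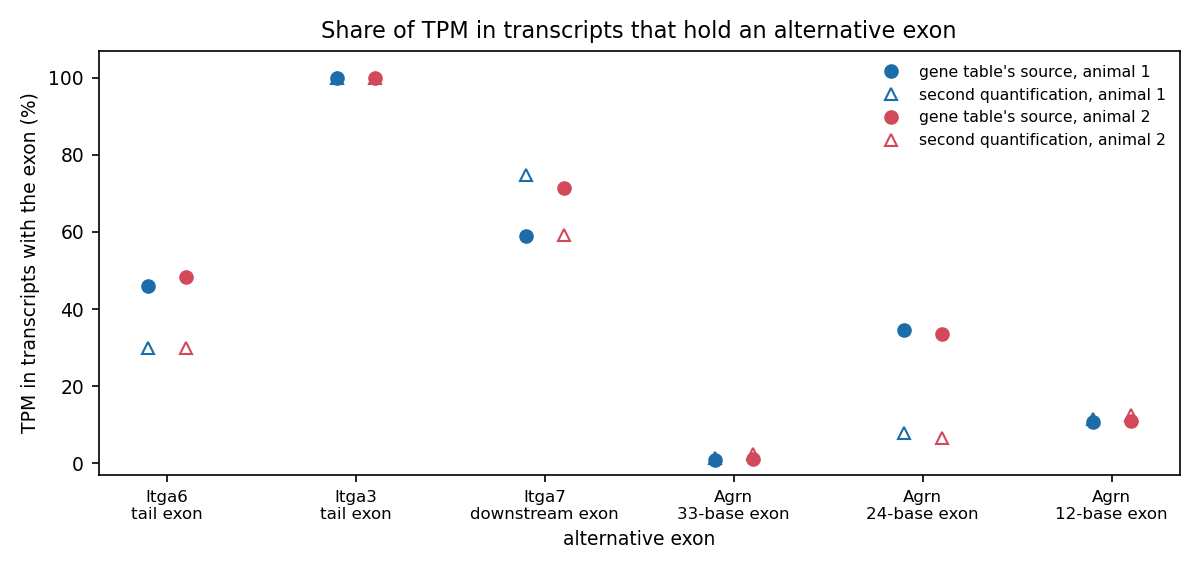
Percent of TPM in transcripts that hold an alternative exon, among those that span it, for the tail exons of Itga6 and Itga3, the downstream exon of Itga7 and the small exons of Agrn, in each animal (color) and each quantification (filled circles for the first, open triangles for the second). Itga3 lies at 100%, the 33-base exon of Agrn between 0.927% and 2.44%, and for Itga6 the circles and triangles stand apart.

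Of the beta subunits, Itgb1, the partner of most alpha subunits, was the highest. It stood at 121 and 117 TPM (mean 119 ± 2.87, SD, n = 2), the top value of all 42 members in the gene table, but in the second quantification it stood at 210 and 201 TPM, below Itga6 at 337 and 334 TPM. Itgb5, which pairs with alphav alone, was second at 62.3 and 66.0 TPM. The other beta subunits were much lower. Itgb3, which pairs with alphav and the platelet alpha subunit, stood at 4.61 and 4.49 TPM. Itgb4, the partner of alpha6 in hemidesmosomes, stood at 3.09 and 1.76 TPM. Itgb8 and Itgb6, which pair with alphav to activate TGF-beta, stood at 2.23 and 1.44 TPM and at 1.43 and 1.21 TPM. Itgb2, the leukocyte beta subunit, stood at 1.90 and 2.82 TPM, and Itgb7, found on lymphocytes and mast cells, at 0.390 and 1.17 TPM. Itgb7 had counts of only 29.0 and 49.0. Over basic transcripts it stood at 0.360 and 0.510 TPM, below 1 TPM in both animals.

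The levels of known partners differed widely. The 12 alpha subunits that can pair with beta1 summed to 255 and 240 TPM, which is 2.11 and 2.05 times Itgb1. Counting only basic transcripts the ratio was 1.38 and 1.41, and in the second quantification 3.00 and 3.04. Itga6 exceeded Itgb4 by 33.2 and 52.0 times. Over basic transcripts this was 22.5 and 30.7 times, and in the second quantification 63.6 and 91.5 times. Itgb5 exceeded Itgav by 1.37 and 1.60 times, by 3.06 and 3.44 times over basic transcripts and by 2.71 and 2.85 times in the second quantification. For the leukocyte receptors, the 4 alpha subunits that pair with beta2 summed to 1.32 and 1.48 times Itgb2.

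The animals were then compared gene by gene. Counts were scaled by TMM and expressed as a log2 ratio of animal 2 over animal 1 for the 36 members with a mean count of at least 100, a 2-fold ratio was called, and each ratio has a 95% interval that covers counting error only. With 2 animals and 1 group there is no test between conditions. Over all 36 members 1 was called, or 2.78%, against 3.21% of the 13734 genes at this count. By direction, 1.71% of all genes were called as higher in animal 1, and 1.5% as higher in animal 2, where no member was called. The members' count is near the background. The 6 members below that count, Lamb3, Itga2b, Itgax, Itgae, Itgad and Itgb7, were left out of the ratios. The median log2 ratio was -0.02 over members and 0.02 over all genes, and the median size of the ratio was 0.13 and 0.11. A smaller part of the members lay within a log2 of 0.5, 83.3% against 93.2% of all genes at this count. The interval lay off 0 for 25 members, or 69.4%, against 41.1% of all genes, and intervals narrow as counts grow.

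Among members under 2-fold, several were higher in animal 1. Lama1 was 1.78-fold higher in animal 1 (log2 -0.83, interval -0.92 to -0.75). Itgb8 was 1.44-fold, Itgb4 1.41-fold, Lama5 1.41-fold and Agrn 1.32-fold higher in animal 1. Marker lists of other tissues also differed between the animals. Of the 8 kidney markers with enough counts 7 were called as higher in animal 1, as were all 7 pancreas markers. The epithelial and mesothelial list was mixed, with sums of 59.0 and 42.0 TPM. Epcam, Cdh1, Krt8 and Krt18 were called as higher in animal 1. Wt1 was also higher in animal 1 (log2 -0.97), under 2-fold. Krt19, Upk3b and Msln were higher in animal 2, by log2 ratios of 0.87, 0.82 and 0.62, under 2-fold. The part of these tissues in the 5 differences was not tested.

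In the other direction, Itgal was 1.56-fold and Itga7 1.54-fold higher in animal 2 (log2 0.64 and 0.63), Itgb2 1.42-fold and Itgam 1.28-fold. Lama2 and Lama3 were each 1.17-fold and Lama4 1.13-fold higher in animal 2. Skeletal muscle markers moved the same way by 6.24 times, with all 7 that had enough counts called. Liver markers did so by 4.19 times, with 5 of 5 called. Macrophage and myeloid markers summed to 101 and 140 TPM and neutrophil markers to 60.0 and 88.5 TPM, with none called. Lymphocyte markers summed to 2.85 and 2.83 TPM, with only Ptprcap of 7 detected in both animals and Cd3e and Nkg7 at 0 in 1 animal each. Their part in these differences was not tested. Of the members with the most counts, Hspg2 differed by a log2 of -0.04, Lamc1 by -0.13, Lamb1 by -0.19, Itgb1 by -0.02, Nid1 by 0.01, Itga6 by -0.10 and Dag1 by -0.01. The sign of Itgb1, Nid1 and Dag1 turned with the scaling or the quantification, as it did for 9 members in all, while 16 members were higher in animal 1 and 11 in animal 2 under each of the 4 scalings and both quantifications.

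**Figure D4:**
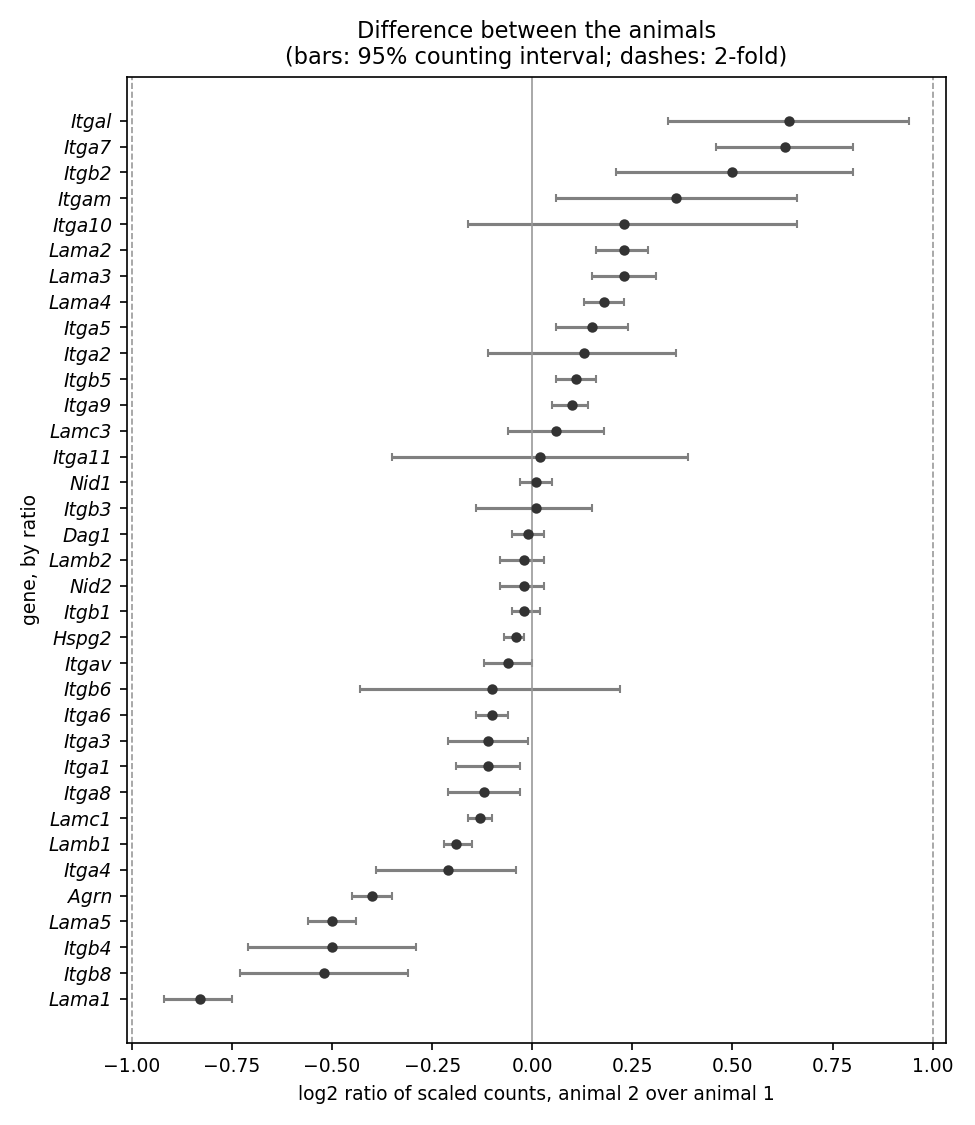
Log2 ratio of TMM-scaled counts, animal 2 over animal 1, for 35 of the 36 members with a mean count of at least 100, ordered by ratio, with bars for the 95% counting interval and dashed lines at 2-fold. The points run from Lama1 at -0.83 to Itgal at 0.64, and those of Hspg2, Itgb1, Dag1 and Nid1 lie at the center line within 0.04.

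The partners of these genes in the matrix and inside the cell were read from 6 lists of 105 distinct genes, of which 97 were detected in both animals. Among type IV collagen and other basement membrane genes, 21 of 22 were detected, 2 were called as higher in animal 1 and none as higher in animal 2. Sparc, a collagen-binding matrix protein gene, led at 821 and 908 TPM, ahead of the collagen IV chain genes Col4a1 at 221 and 214 TPM and Col4a2 at 118 and 110 TPM. Col4a3 reached 1 TPM in animal 1 only, at 1.56 against 0.880 TPM. The called genes were Npnt, which encodes the alpha8 ligand nephronectin, at 24.9 and 12.1 TPM, and Frem2, a gene of the Fraser complex under epithelia, at 3.42 and 1.21 TPM. Kidney markers (156 and 35.6 TPM) moved with both, and their part was not tested.

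Among other integrin ligands, 20 of 22 measured genes were detected, 2 were higher in animal 1 by 2-fold and 4 in animal 2. Postn, encoding the alphav ligand periostin, led at 134 and 169 TPM, ahead of fibronectin, Fn1, at 66.4 and 74.3 TPM and fibrillin-1, Fbn1, at 36.8 and 39.4 TPM. Higher in animal 1 were Spp1, encoding osteopontin, at 19.8 and 1.15 TPM, and Cdh1, the E-cadherin that binds alphaE, at 9.52 and 1.41 TPM. Kidney and pancreas markers were higher in the same animal, with sums given above, and their part was not tested. Higher in animal 2 were genes of liver plasma proteins: the fibrinogen chains Fga at 2.96 and 14.7 TPM, Fgb at 1.43 and 6.25 TPM and Fgg at 2.72 and 12.3 TPM, and vitronectin, Vtn, at 3.60 and 10.6 TPM. Liver markers moved with them (109 and 454 TPM), and their part was not tested.

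All 7 other laminin receptors were detected and none was called. Rpsa, a ribosomal protein gene also described as a laminin receptor, led at 433 and 423 TPM, followed by the syndecans Sdc3 at 82.1 and 83.0 TPM and by Bcam, the Lutheran receptor for alpha5, at 30.2 and 28.0 TPM. Of 25 genes of the integrin adhesion complex inside the cell, 24 were detected and none was called. The actin crosslinker Flna led at 93.2 and 81.2 TPM, then talin, Tln1, at 87.7 and 75.0 TPM and the integrin-activating GTPase Rap1a at 60.6 and 62.6 TPM.

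Of 23 measured genes of the dystroglycan complex and its sugar chains, 22 were detected and 2 were called, both higher in animal 2, among them the muscle sarcoglycan Sgca at 1.01 and 4.18 TPM. Skeletal muscle markers moved with it (351 and 2191 TPM), and their part was not tested. Utrophin, Utrn, stood at 35.9 and 30.1 TPM, the widely expressed sarcoglycan Sgce at 30.2 and 28.9 TPM, and Pomgnt1, an enzyme of dystroglycan glycosylation, at 23.8 and 23.5 TPM. In the hemidesmosome list 3 of 6 genes were detected, the tetraspanin Cd151 at 74.6 and 79.3 TPM, the linker Dst at 54.0 and 51.3 TPM and plectin, Plec, at 37.3 and 43.1 TPM, all of which have other roles. The rest of the list was low, with Col17a1 at 0.0800 and 0.300 TPM, Krt14 at 0.350 and 0.900 TPM and Krt5 listed at 0 in both animals. A gene at 0 could still make up as much as 9.42e-06% of library 1 and 9.11e-06% of library 2.

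The levels also depended on which transcripts were summed. A gene's TPM adds up all its annotated transcripts, including short fragments and retained introns. Over the detected members, a median of 19.9% of TPM in animal 1 and 18.8% in animal 2 lay outside the transcripts tagged basic, close to the 19.6% and 17.4% of the 13067 detected protein-coding genes. It varied between members: for Itgav it was 55.2% and 53.7%, for Lamb2 49.0% and 43.1%, for Lama2 47.5% and 48.6% and for Itga6 46.6% and 43.6%, while for Itgb5, Itgb3 and Lama3 it was at most 0.243%. Lama4, Lamb1, Lamc1, Itga6 and Itgb1 remained the highest of their families by basic transcripts and in the second quantification. The order of Itgav and Itga9 turned, and that of Lama2 and Lama5 also depended on the source, as given with their levels.

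The second quantification gave higher TPM for most genes, by a median of 1.81 times over genes at a mean count of 100 and 1.67 times over members. Itga6 departed most among the leading members, at 337 and 334 TPM, and 42.8% and 47.8% of that was assigned to 1 processed transcript of 443 bases. The leading transcript was the same in both animals and both quantifications for 21 of the 23 members at 5 TPM or more, the exceptions being Itga6 and Hspg2. Hspg2 has a pair of nearly equal coding transcripts, at 27.3 and 25.4 TPM and at 27.2 and 26.1 TPM. Exons of 4 members (Itga1, Itgam, Itga10 and Itgad) overlap those of another annotated gene on the same strand, so their reads may be shared.

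**Figure D5:**
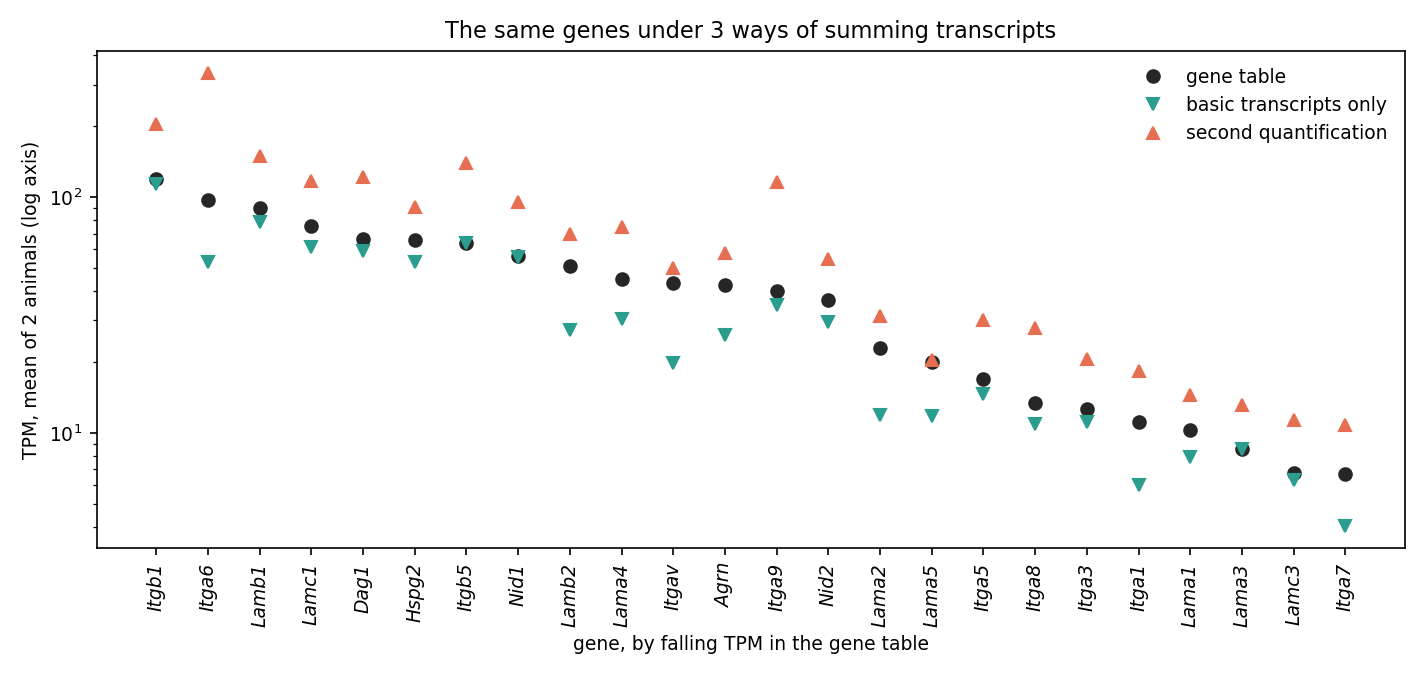
Mean TPM over 2 animals (log axis) of the members with a mean of at least 5 TPM, in the deposited gene table (black circles), summed over basic transcripts only (green triangles pointing down) and in the second quantification (orange triangles pointing up). Itga6 shows the widest spread at the top of the range, and Itgb1 leads by basic transcripts.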

How the data were processed

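The 1 group held 2 total RNA-seq libraries, 1 per B6CASTF1/J female of 4 days, made from 300 ng of adrenal RNA with a spike-in mix per the labels. The authors deposited gene tables with expected counts and TPM and transcript tables with the same units, made from alignments to the transcriptome of mm10 with the M21 annotation per the authors' notes. Another deposited transcript table per library, derived from the reads directly, gave estimated counts and TPM, which were summed to genes and are called the second quantification. The quantifiers used are not given in the sources. Members and gene lists were chosen with earlier results of these data known.

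Members were matched by symbol in the target names to 42 gene identifiers. Detection meant at least 1 TPM in each animal. Ratios between the animals used expected counts of annotated genes (99.1% of all counts in each library) scaled by TMM in edgeR 4.0.16, with a prior count of 0.5, and were called at 2-fold where the mean count reached 100, which is a size rule with no test behind it. Intervals are 95% exact (Clopper-Pearson) binomial intervals, and the floor is 3 counts. Both cover counting error only, since reads lacking molecular identifiers are not independent molecules. Values are mean ± SD over 2 animals. Named genes were all members, except that 1 member and 1 listed gene are not reported here. From each pathway list they were the 3 highest, those at 1 TPM in 1 animal only and those called; 3 listed symbols had no gene. Col17a1, Krt14 and Krt5 were named after their values were seen. Leading transcripts were taken for members at 5 TPM or more in both animals. Alternatives were DESeq2 1.42.0 size factors, spike-in scaling, unscaled TPM, the second quantification, posterior mean TPM, other thresholds and leaving out each animal. Sums over basic transcripts were added after seeing the data. The ratio, the size rule and the interval were run on simulated counts that held counting error and set changes only, scaled by library totals in place of TMM. Variation between animals was not simulated, so that run cannot show how they behave for real animals. Tools were scipy 1.17.1, pandas 2.3.3 and numpy 2.4.6 in Python 3.11.15, matplotlib 3.10.9, and R 4.3.3. Exon sequences came from the GENCODE M21 transcripts and promoters from RefSeq (GRCm38.p6).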

Additional observations from a re-analysis of the deposited data

How the results depend on the processing

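No paired analysis was possible because the study has 1 group. The gene highest in each subunit family was the same in both quantifications, by posterior mean TPM and by basic transcripts. Summed TPM moved with the source of the values. The laminin chains summed to 333 TPM, 511 in the second quantification and 247 over basic transcripts. The integrin alpha subunits summed to 253, 630 and 162 TPM, and the beta subunits to 196, 368 and 190 TPM. In the second quantification the share of Lama4 in alpha chains was 48.6% against 42.1%, of Lamb1 67.9% against 63.4%, of Lamc1 86.0% against 88.6%, of Itga6 53.2% against 38.3% and of Itgb1 55.8% against 60.5%. By posterior mean TPM Lamb1 took 62.7%, and over basic transcripts Lamb1 took 73.8% and Itga6 32.7%. Members detected ranged from 33 to 38 over the alternatives. Without a filter on counts 2 of 42 members were called, Itgad among them, against 24.5% of 29281 genes. At 1.5-fold 4 of 36 members were called, among them Lama1, Itga7 and Itgal, against 5.53% of 13734 genes. Under each of the other alternatives 1 member was called, against 3.22% to 5.67% of all genes tested. From 1 animal alone, members at 1 TPM were 36 (animal 2) and 35 (animal 1). The cause of these shifts was not tested. Depth limits the members with few counts, such as Itgad, Itgae and Itgax.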
